A study of Mus musculus with 48 samples.

Results

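The genes described here are the 3 integrin subunit genes Itgb6, Itgav and Itgb8 and 7 genes of the transforming growth factor beta (TGF-beta) system, namely the ligands Tgfb1, Tgfb2 and Tgfb3, the receptors Tgfbr1 and Tgfbr2, the latency protein gene Ltbp1 and the inhibitor gene Smad7. They were taken by their Ensembl identifiers, and all 10 were present among the 42548 genes of the count table. The data come from RiboTag mice, in which a ribosomal protein carries an HA tag in a chosen cell type, so that RNA held by tagged ribosomes can be pulled down through the tag. Libraries were made with a kit that reads the 3' ends of polyadenylated RNA. There were 24 mice and 48 libraries, 1 from epithelium and 1 from whole lung of every mouse.

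The arms were 5 mice given bleomycin and KIRA8, 4 mice given bleomycin and 3G9, 9 bleomycin control mice and 6 saline control mice. Females and males numbered 2 and 3 in the KIRA8 arm and 1 and 3 in the 3G9 arm. They numbered 3 and 6 among bleomycin controls and 2 and 4 among saline controls. Bleomycin injures the lung and causes fibrosis in mice, KIRA8 is a small molecule inhibitor of the endoplasmic reticulum stress sensor IRE1 alpha, and 3G9 is an antibody against integrin alpha v beta 6. The mice fell into 3 batches. Batch S061 held 3 KIRA8 and 3 bleomycin control mice. Batch S135 held 2 KIRA8, 2 bleomycin control and 3 saline mice. Batch S151 held 4 3G9, 4 bleomycin control and 3 saline mice. The treatment of control mice is labelled Vehicle in S061 and S135 but Axum8 in S151, and controls of both labels formed 1 arm here. The labels give the same precipitation for whole lung and epithelial libraries and name no mice without the tag. The sources used here do not give strain, age, day of collection or the driver that limits the tag to epithelium.

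Integrin alpha v beta 6 is found on epithelial cells and is formed by the products of Itgav and Itgb6. Latent TGF-beta is secreted together with a latency peptide and tied to the matrix by latent TGF-beta binding proteins such as LTBP1. The integrin binds certain latent forms and releases the active ligand by pulling on the complex. Which of the ligands it acts on was not examined here. RNA levels of Itgb6 and Tgfb2 are therefore not read as parts of a shared activation step. The active ligand binds TGFBR2, which then engages TGFBR1, and the signal runs through SMAD transcription factors. SMAD7 is induced by the signal and blocks the receptors. In the injured lung this route is known for its part in fibrosis, and Itgb6 is known to be induced in injured alveolar epithelium.

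The promoters of Itgb6 and Tgfb2 are shown because these genes varied together in the epithelial libraries. Capitals mark the 5 motifs searched on both strands of RefSeq promoters of 300 bases, from 250 bases before to 50 bases after an annotated start. Promoters of 8 of the 10 genes were searched, and Smad7 was left out of the search. Both sequences run 5' to 3' along the gene, which lies on the minus strand in GRCm38.p6. The Itgb6 window is chr2:60722554-60722853, and the Tgfb2 window, whose start site lies inside the annotated span of the gene, is chr1:186705940-186706239.
Itgb6: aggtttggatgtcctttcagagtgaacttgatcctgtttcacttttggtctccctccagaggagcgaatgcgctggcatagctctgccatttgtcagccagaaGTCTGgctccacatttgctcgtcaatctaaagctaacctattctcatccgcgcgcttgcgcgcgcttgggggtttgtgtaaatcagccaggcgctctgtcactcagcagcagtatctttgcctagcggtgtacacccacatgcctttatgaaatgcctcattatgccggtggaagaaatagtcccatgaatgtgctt
Tgfb2: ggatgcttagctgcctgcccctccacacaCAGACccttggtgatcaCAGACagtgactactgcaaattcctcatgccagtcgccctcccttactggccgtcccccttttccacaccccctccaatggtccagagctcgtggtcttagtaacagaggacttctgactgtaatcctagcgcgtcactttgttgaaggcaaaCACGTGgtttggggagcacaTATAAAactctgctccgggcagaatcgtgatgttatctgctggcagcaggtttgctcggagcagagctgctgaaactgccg
The SMAD box CAGAC stood once in the Itgb6 window, as GTCTG at base 104, and at bases 30 and 47 of the Tgfb2 window. It was present in 49.6% of the 32851 promoters of this length. The Tgfb2 window also held CACGTG at base 200, a motif in 7.15% of promoters, and the TATA box TATAAA at base 220, a motif in 13.6%. The motif TGACGTG, known as the core of the unfolded protein response element and present in 2.01% of promoters, and the AP-1 motif TGANTCA, present in 7.81%, were in neither window. The table holds 2 promoters of Itgb6, and the other, not shown, held none of the 5 motifs. These matches describe the letters only.

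The genes lie apart from each other in GRCm38.p6. Itgb6 (ENSMUSG00000026971) spans chr2:60598292-60722603 and Itgav (ENSMUSG00000027087) chr2:83722303-83806917. Tgfb2 (ENSMUSG00000039239) spans chr1:186622787-186709697 and Tgfb1 (ENSMUSG00000002603) chr7:25687002-25705077. Tgfb3 (ENSMUSG00000021253) spans chr12:86056743-86079041, and Itgb8 (ENSMUSG00000025321) lies on the same chromosome at chr12:119162803-119238276. Tgfbr1 (ENSMUSG00000007613) spans chr4:47353222-47414926 and Tgfbr2 (ENSMUSG00000032440) chr9:116087695-116175363. Ltbp1 (ENSMUSG00000001870) spans chr17:75005480-75392512, and Smad7 (ENSMUSG00000025880) lies on chromosome 18.

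Total counts ran from 7163613 to 51797377 per library, with the shallowest libraries in batch S135. In batch S061, 146 genes with 50 or more CPM (counts relative to the library total) in each library there and a median under 0.5 CPM in the other batches took from 9.25% to 12.7% of counts in the KIRA8 epithelial libraries, against 6.01% to 8.59% in the bleomycin control epithelial libraries. Levels below are CPM scaled by the trimmed mean of M values (TMM), as in the tests. The scaling mattered, because with library totals alone the median gene of the epithelial fit stood at a log2 difference of 0.37 for bleomycin control against saline and -0.21 for KIRA8 against bleomycin control. It stood at -0.84 for epithelium against whole lung in saline mice and -0.49 in bleomycin control mice. Since the table does not pair identifiers with symbols, cell type markers and other pathway genes were not examined, and the epithelial label was not checked against them. In bulk RNA, fewer cells of a type and less RNA per cell cannot be told apart, and in precipitated RNA neither can RNA amount and ribosome loading.

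Within mice, epithelial libraries held relatively more Itgb6 and Tgfb2 and less of most other genes of the system than whole lung libraries, a contrast whose sign depended on scaling for both genes in saline mice. In 6 saline mice 9 genes were tested in paired libraries with the mouse as a block. All 9 differed at an adjusted p under 0.05 (2 higher and 7 lower in epithelium), where 57.5% of all genes tested did, 27.3% higher and 30.3% lower. In 9 bleomycin control mice 9 of 10 differed, 2 of them higher and 7 lower in epithelium. Of all genes 60.8% did, 30.5% higher and 30.3% lower. The 7 include Itgb8, which passed the filter on low counts only through its whole lung libraries. The median log2 difference of the tested genes was -1.44 in saline mice and -0.97 in bleomycin control mice, beside -0.06 and 0.00 over all genes.

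Itgb6, which encodes the beta subunit that limits the integrin to epithelium, was higher in epithelium in 24 of 24 mice, with ratios of epithelium to whole lung of 1.05 at the lowest, 1.80 at the median and 4.41 at the highest. With library totals alone it was higher in 17 of 24 mice, with a median ratio of 1.13. The 3 highest ratios, 4.41, 4.08 and 3.10, were all from bleomycin control mice of batch S061. In bleomycin control mice the log2 difference was 1.15 ± 0.17 (SE, adjusted p = 4.35e-05), and 0.65 with library totals. In saline mice it was 0.62 ± 0.16 (adjusted p = 0.00521), but -0.15 (adjusted p = 0.494) with library totals alone, where 3 of 6 mice were higher.

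Of the 3 ligand genes only Tgfb2 had higher fitted levels in epithelium, and in saline mice the sign turned with library totals. Its log2 difference was 0.76 ± 0.09 in bleomycin control mice (adjusted p = 5.59e-06; 0.27 and adjusted p = 0.0930 with library totals), and it was higher in epithelium in 9 of 9 of them. In saline mice it was 0.44 ± 0.13 (adjusted p = 0.0120), but -0.32 with library totals, where it was higher in 1 of 6 mice. In KIRA8 mice the order was mixed, with 2 of 5 mice higher in epithelium and a median ratio of 0.846.

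The fitted differences of the other genes were below 0 under every scaling run. Ltbp1 had ratios of 0.0798 to 0.250 over 24 mice, with log2 differences of -2.49 ± 0.16 in bleomycin control mice and -2.75 ± 0.22 in saline mice. Tgfb1, the ligand gene made by many stromal and immune cells, stood at -2.30 ± 0.17 in bleomycin control mice and -1.96 ± 0.22 in saline mice. Tgfb3 was at -0.91 ± 0.20 and -1.62 ± 0.29 in these groups. The receptor genes and Smad7 were lower in both groups of mice. Tgfbr1 was at -1.46 in bleomycin control mice and -1.44 in saline mice, Tgfbr2 at -0.87 and -0.75, and Smad7 at -1.04 and -1.50. Itgav, the alpha subunit shared with several other beta subunits, was lower in saline mice (-0.67 ± 0.16, adjusted p = 0.00341) and did not pass in bleomycin control mice (-0.32 ± 0.14, adjusted p = 0.0702). It passed there without batch S061, at -0.54 (adjusted p = 0.0106), and when any of the S061 control mice 17, 31 or 45 was left out (adjusted p from 0.0241 to 0.0489).

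Itgb8, the beta subunit of another TGF-beta activating integrin and known from fibroblasts and dendritic cells, was hardly present in epithelial libraries. It had no count in 10 of 24 epithelial libraries, at depths where 3 counts correspond to 0.0800 to 0.560 CPM, and 5 to 84 counts in every whole lung library. The highest epithelial value, 5.22 CPM from 28 counts, came from KIRA8 mouse 155, which had the shallowest library of the series. It passed the low-count filter of no epithelial arm comparison and was not tested between compartments in saline mice. In bleomycin control mice it had 22 counts over the epithelial libraries and 443 over the whole lung libraries. There it passed the filter of the paired fit only through whole lung, so a lower epithelial level was fixed in advance. The fitted log2 difference was -3.76 ± 0.70, and its call is no test of the gene.

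**Figure D1:**
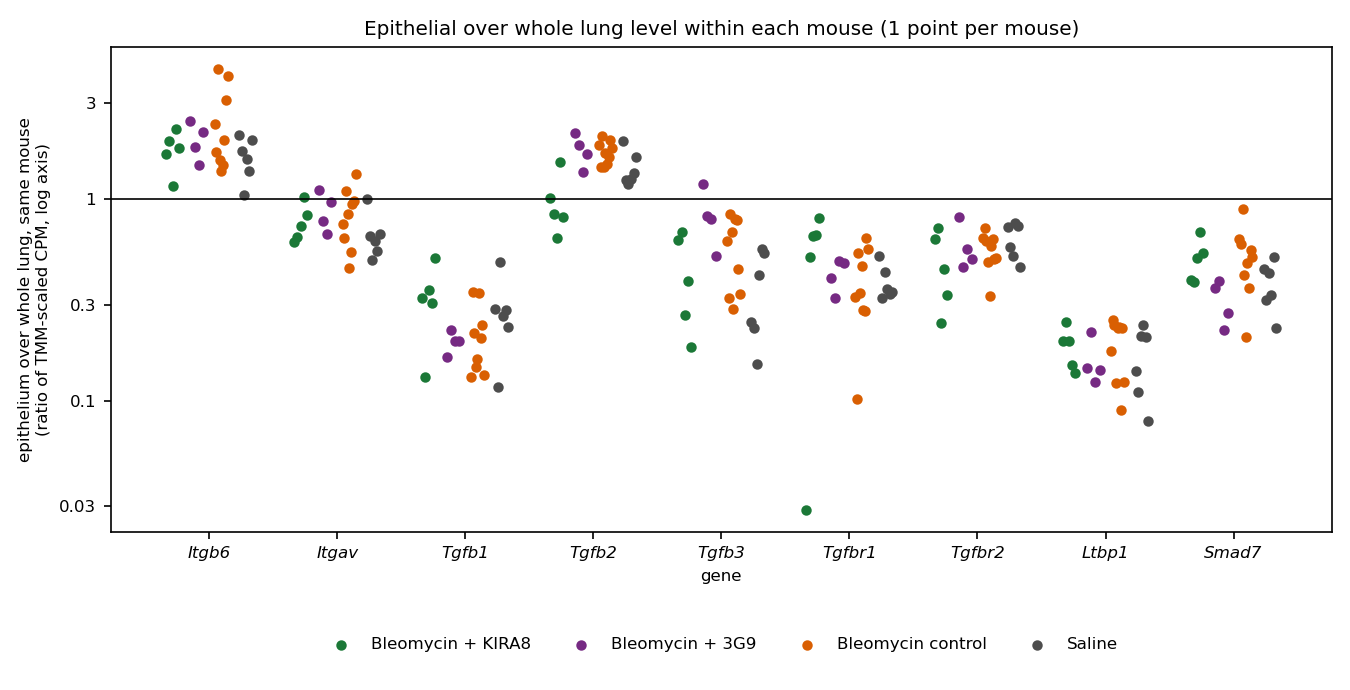
Ratio of epithelial to whole lung TMM-scaled CPM in each mouse (log axis) for 9 genes, with 1 point per mouse and colours for the arms; Itgb8 is left out because 10 epithelial libraries had no count. Itgb6 lies above 1 in 24 of 24 mice and Tgfb2 in 21 of 24, which with library totals alone fall to 17 and 10, and Ltbp1 lies at or below 0.250 throughout.

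Bleomycin against saline asks how the injury alters the system. In epithelium none of the 9 tested genes passed with edgeR, where 8.72% of the 17291 genes tested did. The intervals were nonetheless shifted to higher values for several of them. Of the 9 genes, 7 had a positive difference and 4 had an unadjusted p under 0.05, as did 22.9% of all genes. The median log2 difference was 0.37, beside 0.00 over all genes.

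Itgb6 in batch S151 had 66.8, 53.5, 88.0 and 68.6 CPM in epithelium of bleomycin control mice, against 58.5, 34.5 and 43.7 CPM in saline mice. The arms overlapped only through control mouse 206 and saline mouse 230. In S135 the values were 53.3 and 38.6 CPM in bleomycin control mice, against 42.9, 40.4 and 18.3 CPM in saline mice. Across both batches the log2 difference was 0.55 ± 0.21 (adjusted p = 0.103), a level 1.46 times that of saline mice. Itgav in S151 had 26.2, 15.8, 47.6 and 46.6 CPM in bleomycin control mice, against 24.3, 15.3 and 13.3 CPM in saline mice. Control mouse 206 lay inside the saline range and the other controls above it, and the fitted difference was 0.64 ± 0.22 (adjusted p = 0.0612).

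Among the ligands, Tgfb2 in S151 had 61.1, 59.9, 68.0 and 52.4 CPM in bleomycin control epithelium, against 48.1, 37.4 and 39.3 CPM in saline epithelium, and the arms did not overlap. In S135 it had 144 and 109 CPM in bleomycin control mice, against 137, 104 and 93.6 CPM in saline mice, and the arms overlapped. The fitted difference was 0.35 ± 0.13 (adjusted p = 0.0822). Tgfb3 had the largest fitted difference of the 9 genes, 0.87 ± 0.31 (adjusted p = 0.0813), from means of 6.50 ± 2.42 CPM in bleomycin control mice (SD, n = 2) and 3.09 ± 1.19 CPM in saline mice (SD, n = 3) in S135, where the arms did not overlap. In S151 the means were 21.9 ± 10.2 CPM in bleomycin control mice (SD, n = 4) and 13.7 ± 5.54 CPM in saline mice (SD, n = 3), and the arms overlapped. Tgfb1 differed by -0.14 ± 0.29 (adjusted p = 0.830).

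For the receptors and regulators the fitted differences were 0.37 ± 0.19 for Tgfbr2, -0.24 ± 0.36 for Tgfbr1, 0.38 ± 0.25 for Ltbp1 and 0.05 ± 0.17 for Smad7, with adjusted p from 0.227 to 0.919. Within batches, arms were free of overlap for Tgfb3 and Smad7 in S135, both higher in bleomycin control mice, where 15.2% of genes with a mean of at least 1 CPM were. Ltbp1 joined them with library totals, beside 26.1% of genes. In S151 only Tgfb2 was higher without overlap, where 8.37% of genes were, and with library totals Itgb6 and Tgfbr1 were too, beside 3129 of 13037 genes.

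The count of calls in this contrast moved with the setting. It was 3 with DESeq2 (Itgav, Tgfb2 and Tgfb3), where 12.3% of all genes passed, and 3 with sex as a term (the same genes), where 8.13% did. With library totals it was 6, where 20.9% of all genes passed, and Itgb6 was among them at 0.92 (adjusted p = 0.0112). Without control mouse 206, which had the lowest S151 control level of Itgb6, Itgav, Tgfb1, Tgfb3, Tgfbr2 and Smad7 in epithelium, Itgav (adjusted p = 0.0129), Tgfb3 (0.0118) and Tgfbr2 (0.0340) passed, beside 10.8% of all genes. Itgav and Tgfb2 passed without control mouse 149 and without saline mouse 146, beside 9.39% and 8.03% of all genes, and Tgfb3 alone passed without saline mouse 230, beside 7.23%.

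In whole lung 1 of 10 genes passed, Itgav, against 10.1% of the 19345 genes tested (6.01% higher). Itgav in S151 had 47.9, 50.1, 34.8 and 55.5 CPM in bleomycin control mice, against 23.9, 24.7 and 36.1 CPM in saline mice, overlapping only through control mouse 206 and saline mouse 230. In S135 it had 32.5 and 27.9 CPM in bleomycin control mice, against 20.6, 26.9 and 29.3 CPM in saline mice. The log2 difference was 0.49 ± 0.13 (adjusted p = 0.0195), a level 1.40 times that of saline mice. Within batches alone it was 0.72 in S151 (adjusted p = 0.0751) and 0.26 in S135 (adjusted p = 0.564), and it did not pass without saline mouse 221 (0.40, adjusted p = 0.0640) or saline mouse 207 (0.41, adjusted p = 0.0633).

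Itgb6 in whole lung of S151 had 45.2, 45.0, 39.1 and 44.1 CPM in bleomycin control mice, against 31.7, 21.9 and 29.7 CPM in saline mice. The arms did not overlap in this batch, as held for 2 of the 10 genes (Itgb6 and Tgfb2) and 13.5% of all genes in the higher direction, or for 3 genes with Itgav and 19.1% of all genes with library totals. In S135, the levels of 22.6 and 22.6 CPM in bleomycin control mice lay inside the saline range of 17.4 to 23.4 CPM. In that batch Itgb8 was higher and Smad7 lower without overlap, as were 17.3% of all genes in each direction. The difference over both batches was 0.31 ± 0.17 (adjusted p = 0.268). Saline mouse 230 stood apart in whole lung, with 108 CPM of Tgfb1, 174 CPM of Tgfbr2 and 98.2 CPM of Smad7, above both other saline mice of S151. Without it, Itgb8 (1.54, adjusted p = 0.0188) and Tgfb1 (0.66, adjusted p = 0.0273) passed beside Itgav, as did 9.35% of all genes.

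The difference of the bleomycin response between epithelium and whole lung was tested in the same mice, and 0 of 10 genes passed with edgeR or DESeq2, against 0.162% of 17956 genes with edgeR and 1.03% with DESeq2. None had an unadjusted p under 0.05 with edgeR, where 9.06% of all genes did. The difference was 0.11 ± 0.19 for Itgb6, with an interval from -0.25 to 0.48, and 0.57 ± 0.31 for Tgfb3, with an interval from -0.03 to 1.17.

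**Figure D2:**
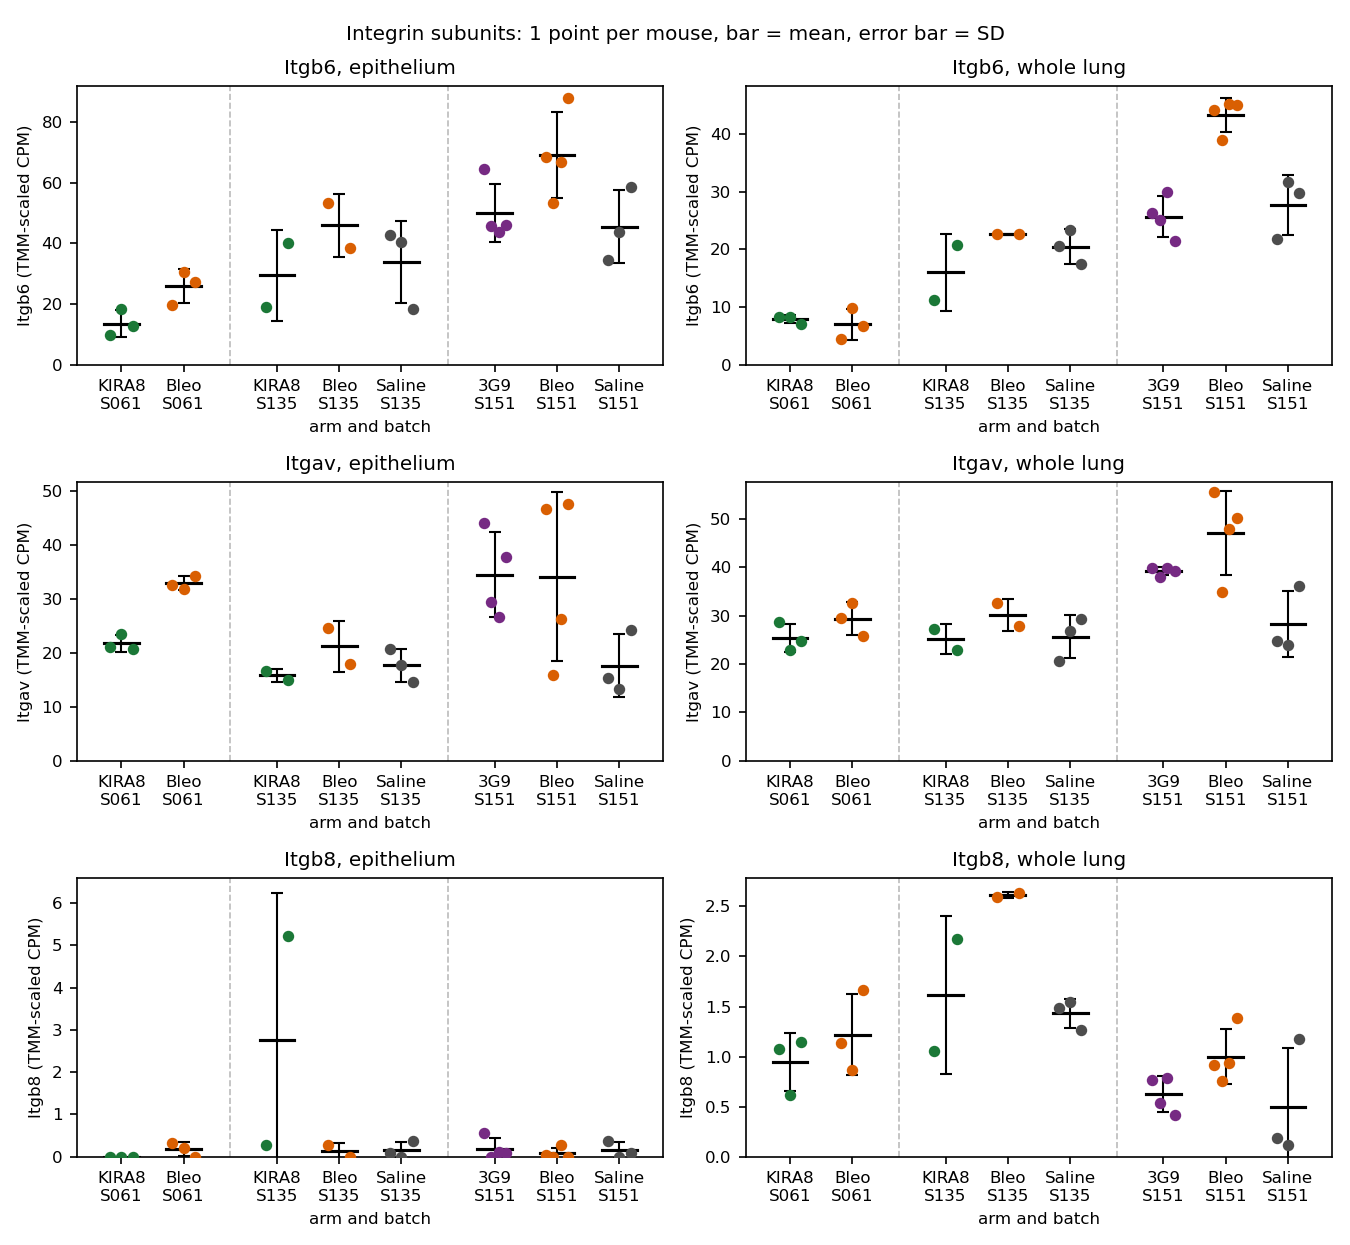
TMM-scaled CPM of Itgb6, Itgav and Itgb8 by arm and batch, with 1 point per mouse, the mean as a bar and the SD as the error bar; batches are divided by dashed lines and each panel has its own axis from 0. In S151 whole lung, Itgb6 in 3G9 mice (21.5 to 29.9 CPM) lies below all bleomycin control mice (39.1 to 45.2 CPM) and overlaps saline mice (21.9 to 31.7 CPM).

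KIRA8 against bleomycin control asks what IRE1 alpha inhibition alters in injured mice. In epithelium Tgfb2 fell, and Itgb6, Itgav and Tgfbr2 had lower values that did not pass. With 1 of 9 genes called, against 0.26% of all genes tested (0.174% lower), 8 of the 9 had a negative difference. The median log2 difference was -0.32, beside 0.02 over all genes.

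Tgfb2 in S061 epithelium had 34.0, 49.9 and 33.8 CPM in KIRA8 mice, against 60.1, 73.2 and 65.5 CPM in bleomycin control mice. In S135 it had 72.2 and 79.7 CPM in KIRA8 mice, against 144 and 109 CPM in bleomycin control mice. The arms did not overlap in either batch, although the level itself differed between batches. The log2 difference was -0.80 ± 0.14 (adjusted p = 0.00925), a level 0.576 times that of bleomycin control mice. The call held when any of 14 mice was left out (adjusted p up to 0.0476). It was lost without batch S061 (-0.85, adjusted p = 0.265), within S061 alone (-0.85, adjusted p = 0.0615), within S135 alone (-0.74, adjusted p = 0.199) and with the count share of the 146 genes limited to S061 as a term (-0.73, adjusted p = 0.118), each at nearly the same size.

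Itgb6 in S061 epithelium had 9.65, 18.3 and 12.7 CPM in KIRA8 mice, against 19.8, 30.7 and 27.2 CPM in bleomycin control mice, without overlap. In S135 it had 18.9 and 40.1 CPM in KIRA8 mice, against 53.3 and 38.6 CPM in bleomycin control mice, and KIRA8 mouse 155 lay inside the control range. The difference was -0.83 ± 0.23 (adjusted p = 0.129), a size like that of Tgfb2 with a wider error, and passed with DESeq2 (-0.82, adjusted p = 0.0369). Itgav had 21.1, 23.5 and 20.6 CPM in S061 KIRA8 mice, against 32.5, 31.8 and 34.3 CPM in bleomycin control mice. In S135 it had 16.7 and 14.9 CPM in KIRA8 mice, against 24.6 and 17.9 CPM in bleomycin control mice. Both batches were free of overlap for Itgav, and the fitted difference was -0.62 ± 0.23 (adjusted p = 0.277).

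Tgfbr2, the receptor that binds the ligand, averaged, in S061, 32.3 ± 7.45 CPM in KIRA8 mice and 54.5 ± 8.17 CPM in bleomycin controls (SD, n = 3 each), and 65.5 ± 2.35 and 72.7 ± 2.02 CPM in these arms of S135 (n = 2 each). Its fitted difference was -0.50 ± 0.20 (adjusted p = 0.314). Smad7 was lower without overlap in both batches, at 14.5 ± 1.93 CPM in KIRA8 mice and 18.1 ± 0.238 CPM in bleomycin control mice of S061, and did not pass (-0.32 ± 0.19, adjusted p = 0.528). Tgfb1 (-0.01 ± 0.33), Tgfb3 (0.30 ± 0.33), Tgfbr1 (-0.31 ± 0.41) and Ltbp1 (-0.07 ± 0.27) did not pass. In S061, 5 of the 10 genes were lower in KIRA8 mice without overlap, against 11.7% of genes averaging at least 1 CPM. That share was 26.5% with library totals. In S135 with 2 mice an arm, 4 were lower, against 19.4% of all genes, or 26.3% with library totals. Tgfb3 and Itgb8 were higher there, against 18.6%, which neither was with library totals, where 12.8% of all genes were. For Itgb8 the gap was 0.279 CPM in KIRA8 mouse 154 against 0.274 CPM in control mouse 148. The control arm held 3 counts of it in all, so this order carries no weight.

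In whole lung 0 of 10 genes passed with edgeR or DESeq2, against 0.527% of all genes with edgeR and 3.62% with DESeq2, and 3 had an unadjusted p under 0.05, as did 15.4% of all genes. Tgfb2 there had 53.3, 32.8 and 41.7 CPM in S061 KIRA8 mice, against 29.2, 37.2 and 36.6 CPM in bleomycin control mice, and the arms overlapped. Its difference was 0.16 ± 0.12 (adjusted p = 0.565), and that of Itgb6 was -0.20 ± 0.20 (adjusted p = 0.651). Tgfb1 had 7.30, 6.88 and 6.20 CPM in S061 KIRA8 mice, against 14.8, 11.8 and 12.8 CPM in bleomycin control mice. It did not overlap there and passed within S061 alone (-0.94, adjusted p = 0.0491), but stood at -0.13 within S135 and -0.53 ± 0.24 over both batches (adjusted p = 0.282). Tgfbr1 (-0.40 ± 0.15, adjusted p = 0.213) and Itgav (-0.31 ± 0.14, adjusted p = 0.285) were the others with an unadjusted p under 0.05. Without overlap, Tgfb1 was lower and Tgfb3 higher in S061, as were 11.2% and 11.4% of all genes, and Itgav, Itgb6, Itgb8 and Tgfbr1 were lower in S135, as were 20.9%. With library totals Tgfb3 took the place of Itgav in S135, beside 19.8% of all genes, and Smad7 was higher without overlap, beside 17.8%.

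The difference of the KIRA8 response between compartments was -0.95 ± 0.19 for Tgfb2 (unadjusted p = 7.83e-05, adjusted p = 0.131) and -0.75 ± 0.23 for Itgb6 (adjusted p = 0.212). With 0 of 10 genes called, against 0.00548% of 18243 genes, 2 had an unadjusted p under 0.05, as did 12.7% of all genes. The Tgfb2 difference passed with DESeq2 (-0.97, adjusted p = 0.00259), without the low-count filter (-0.95, adjusted p = 0.0129) and without KIRA8 mouse 32 (-1.13, adjusted p = 0.0239). It did not pass with median-ratio (RLE) scaling, with library totals, without the mouse as a block or without batch S061. Of 14 fits without a single mouse, only that without mouse 32 called a gene of the system.

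**Figure D3:**
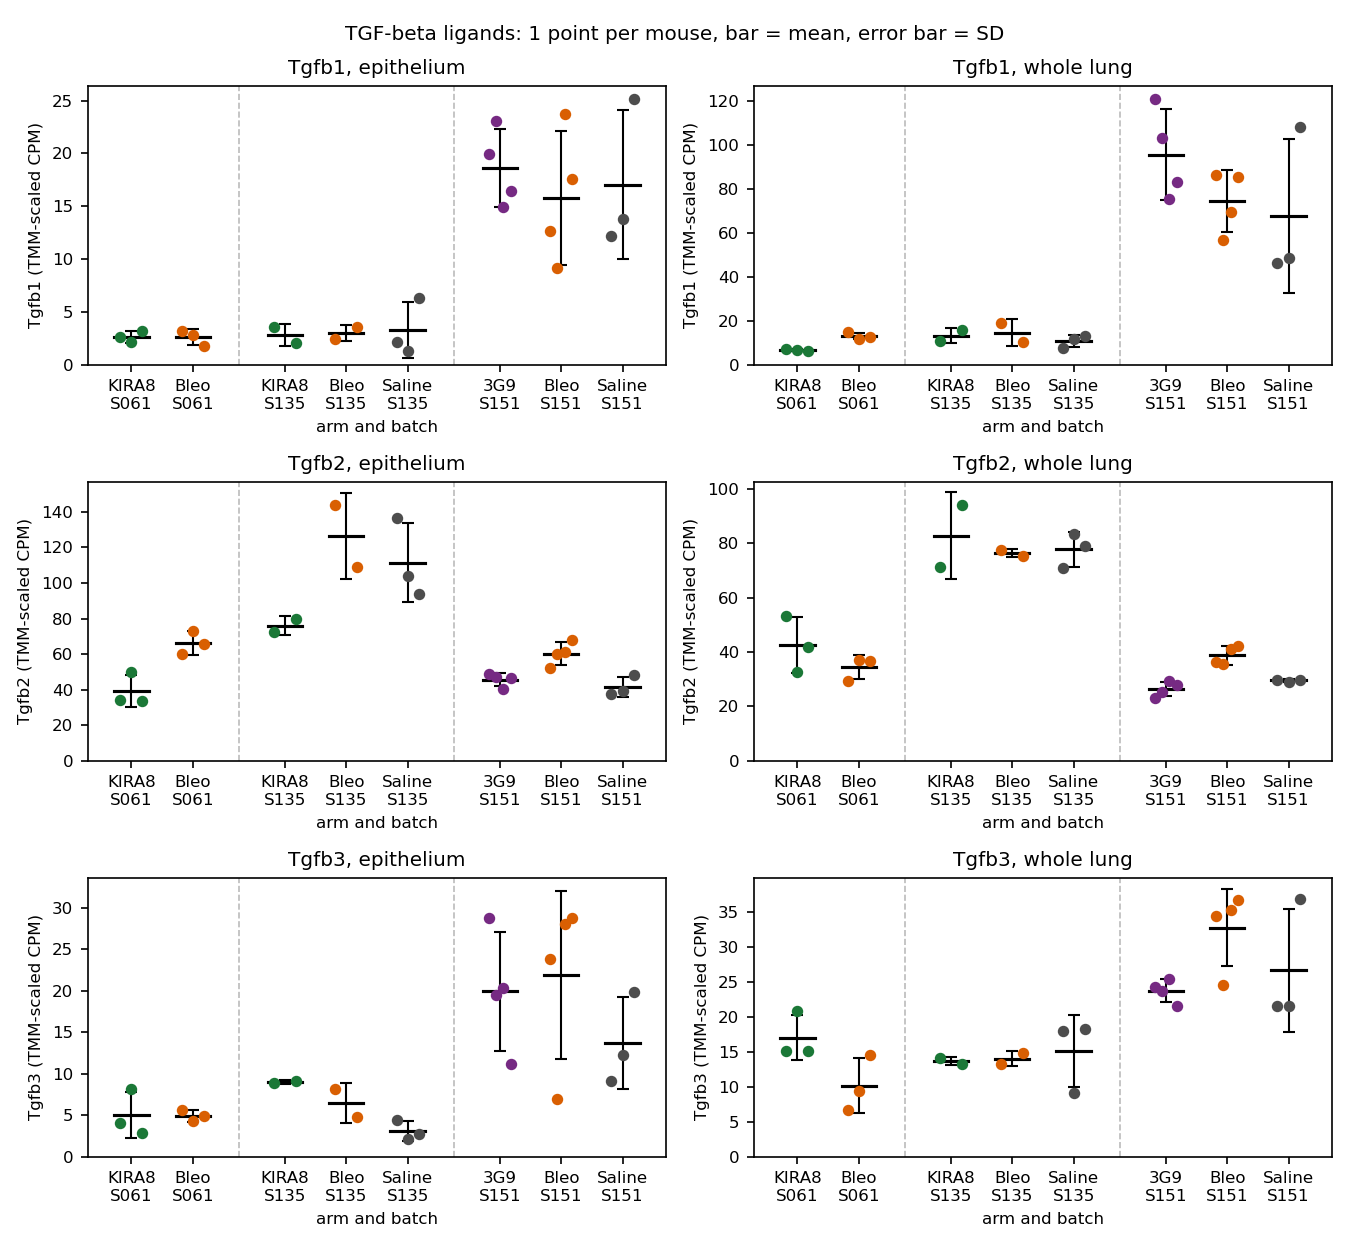
TMM-scaled CPM of Tgfb1, Tgfb2 and Tgfb3 by arm and batch, with 1 point per mouse, the mean as a bar and the SD as the error bar. Tgfb2 in epithelium lies lower in KIRA8 than in bleomycin control mice in S061 and in S135 without overlap, and Tgfb1 lies several times higher in every arm of S151 than in S135.

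The comparison of 3G9 with bleomycin control asks what blocking the integrin alters in injured mice, and all 3G9 mice were of batch S151. No gene of the system passed in either compartment. In whole lung, Itgb6 and Tgfb2 were lower in every 3G9 mouse than in every bleomycin control mouse of the batch, which held for 1.71% of all genes. In epithelium this held for Tgfb2 alone, and for 1.48% of all genes.

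Itgb6 in whole lung had 26.4, 29.9, 25.1 and 21.5 CPM in 3G9 mice, against 45.2, 45.0, 39.1 and 44.1 CPM in bleomycin control mice. Among 3G9 mice, 3 of 4 lay inside the saline range of 21.9 to 31.7 CPM. The log2 difference was -0.62 ± 0.20 (unadjusted p = 0.00550, adjusted p = 0.310), a level 0.650 times that of bleomycin control mice. Tgfb2 in whole lung had 23.1, 29.3, 25.3 and 27.9 CPM in 3G9 mice, against 41.0, 42.3, 35.5 and 36.2 CPM in bleomycin control mice. The difference was -0.46 ± 0.13 (unadjusted p = 0.00221, adjusted p = 0.212). With Tgfbr1 (-0.43 ± 0.16, adjusted p = 0.458), 3 of 10 genes had an unadjusted p under 0.05, as did 6.94% of all genes, and 0 of 10 passed with edgeR or DESeq2, against 0.196% of 19345 genes with edgeR and 1.19% with DESeq2.

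In epithelium Tgfb2 had 40.1, 48.9, 46.8 and 47.0 CPM in 3G9 mice, against 61.1, 59.9, 68.0 and 52.4 CPM in bleomycin control mice. The difference was -0.33 ± 0.15 (unadjusted p = 0.0371, adjusted p = 1). Itgb6 had 43.8, 64.4, 46.1 and 45.7 CPM in 3G9 mice, against 66.8, 53.5, 88.0 and 68.6 CPM in bleomycin control mice. Only 3G9 mouse 218 lay inside the control range, and the difference was -0.45 ± 0.24 (adjusted p = 1). Itgav differed by 0.14 ± 0.24, and 0 of 9 genes passed with edgeR or DESeq2. Of all 17291 genes, 0 passed with edgeR (0%) and 0.208% with DESeq2, and 3.27% had an unadjusted p under 0.05 with edgeR. The difference of the 3G9 response between compartments was 0.31 ± 0.20 for Itgb6 and 0.17 ± 0.16 for Tgfb2. It passed for 0 of 10 genes with edgeR or DESeq2, against 0 of 18910 genes with edgeR and 0.00529% with DESeq2. None of the 10 had an unadjusted p under 0.05 with edgeR, where 2.2% of all genes did.

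**Figure D4:**
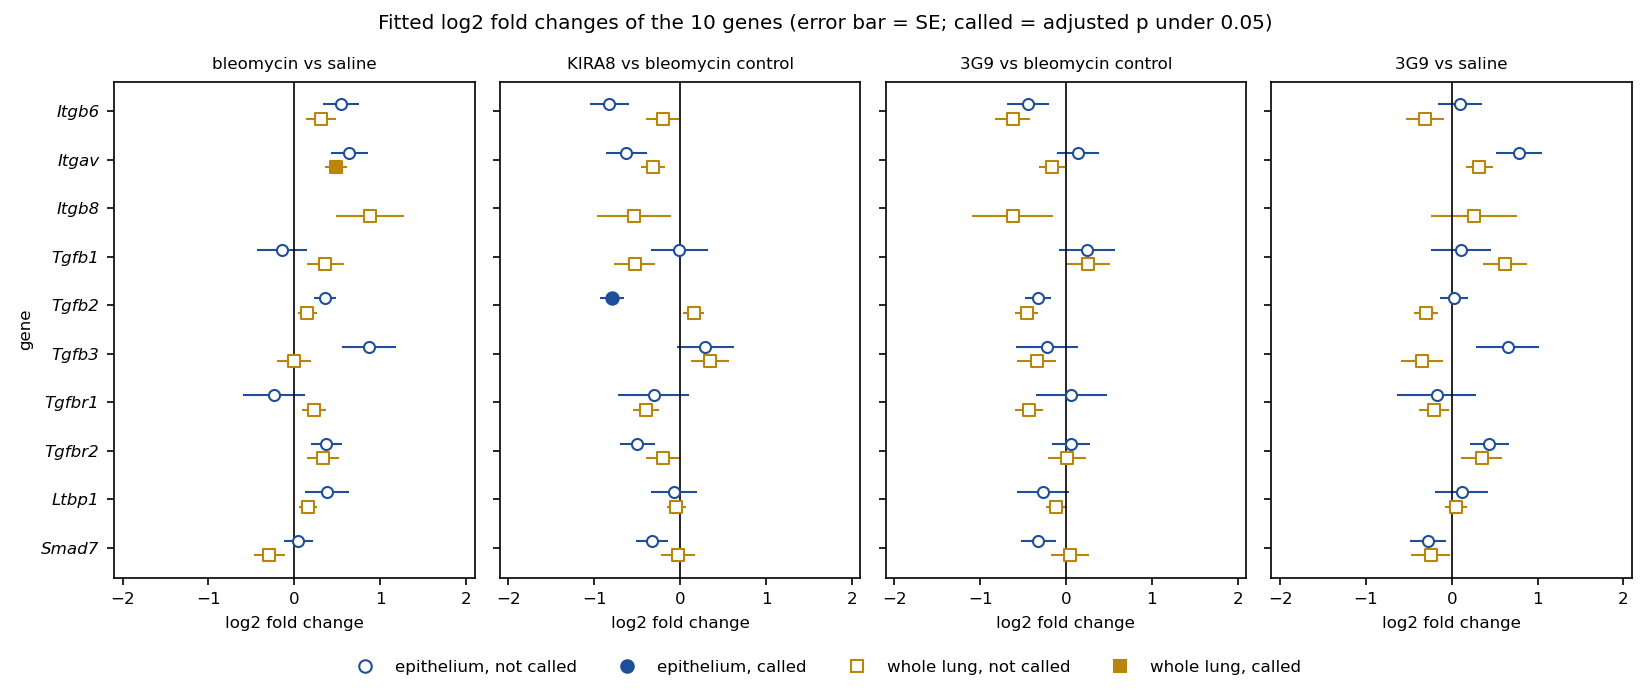
Fitted log2 fold changes with SE for the 10 genes in the comparisons between arms, in epithelium (circles) and whole lung (squares); filled symbols have an adjusted p under 0.05 and Itgb8 was not tested in epithelium. The filled symbols are Tgfb2 in epithelium for KIRA8 (-0.80) and Itgav in whole lung for bleomycin (0.49).

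Set against saline mice, 3G9 mice had no call in epithelium (0 of 9, where 4.24% of all genes passed) or in whole lung (0 of 10, where 10.4% passed). An unadjusted p under 0.05 was found for 1 of 9 genes in epithelium and 17.4% of all genes, and for 2 of 10 in whole lung and 26.1% of all genes. Itgb6 differed from saline by 0.10 ± 0.26 in epithelium, with an interval from -0.40 to 0.60, and by -0.31 ± 0.22 in whole lung. These are from the fit over all batches. Within S151, which held all 3G9 mice, the mean log2 levels differed by 0.15 in epithelium and -0.10 in whole lung. Itgav in epithelium had 26.7, 44.0, 37.6 and 29.5 CPM in 3G9 mice, against 24.3, 15.3 and 13.3 CPM in saline mice. The arms did not overlap, which held for 12.3% of all genes, and the difference was 0.78 ± 0.27 (adjusted p = 0.101). It passed with DESeq2 (0.79, adjusted p = 0.0475) and within S151 alone (0.95, adjusted p = 0.0412). In whole lung, Itgav was also higher without overlap (0.32 ± 0.16, adjusted p = 0.208), as were 13.6% of all genes. Tgfb1 in whole lung differed by 0.62 ± 0.26 (adjusted p = 0.129) and passed without saline mouse 230 (1.01, adjusted p = 0.00682). The bleomycin, KIRA8 and 3G9 comparisons share bleomycin control or saline mice, so their values for a gene are not independent of each other.

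Arms were compared within batch because they were spread unevenly over the batches. Within saline mice the ligand genes differed between batches, as did most genes of the table with a mean of at least 1 CPM. Tgfb1 in whole lung averaged 67.9 ± 35.1 CPM in S151 and 10.6 ± 2.75 CPM in S135 (SD, n = 3 each), a ratio of 6.37. There 5.11% of genes differed more in either direction, compared after 0.5 CPM was added to each mean. In epithelium Tgfb1 averaged 17.1 ± 7.06 CPM in S151 and 3.27 ± 2.66 CPM in S135, a ratio of 5.22. Tgfb2 ran the other way, at 29.5 ± 0.427 CPM in S151 and 77.9 ± 6.48 CPM in S135 whole lung. Tgfb3 was 4.43 times as high in S151 as in S135 in epithelium, where 14.0% of genes differed more. In whole lung it was 1.77 times as high, where 48.5% did. The ligand genes did not overlap between the batches, nor did 67.6% of all genes in whole lung and 61.4% in epithelium. Itgb8 did not overlap in whole lung but overlapped in epithelium. Itgb6, Itgav, Tgfbr1, Tgfbr2, Ltbp1 and Smad7 overlapped in both compartments.

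Across the 24 epithelial libraries, after each batch mean was removed, Tgfb2 was the second most like gene to Itgb6 among genes with a mean of at least 5 CPM, of which there were 10722 with library totals and 11196 with TMM scaling. Pearson's r of log2(CPM + 0.5) was 0.91 with library totals and 0.84 with TMM scaling, and the rank was the same under both. The most like gene was ENSMUSG00000038280, with r of 0.94 and 0.88, which is not named here because the files give identifiers only. In the other direction, Itgb6 was the most like gene to Tgfb2 with TMM scaling, but with library totals another gene came first (r of 0.92). In whole lung the r of Itgb6 with Tgfb2 was 0.71 with library totals and 0.66 with TMM scaling. These values describe 24 libraries that share arms and scaling.

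**Figure D5:**
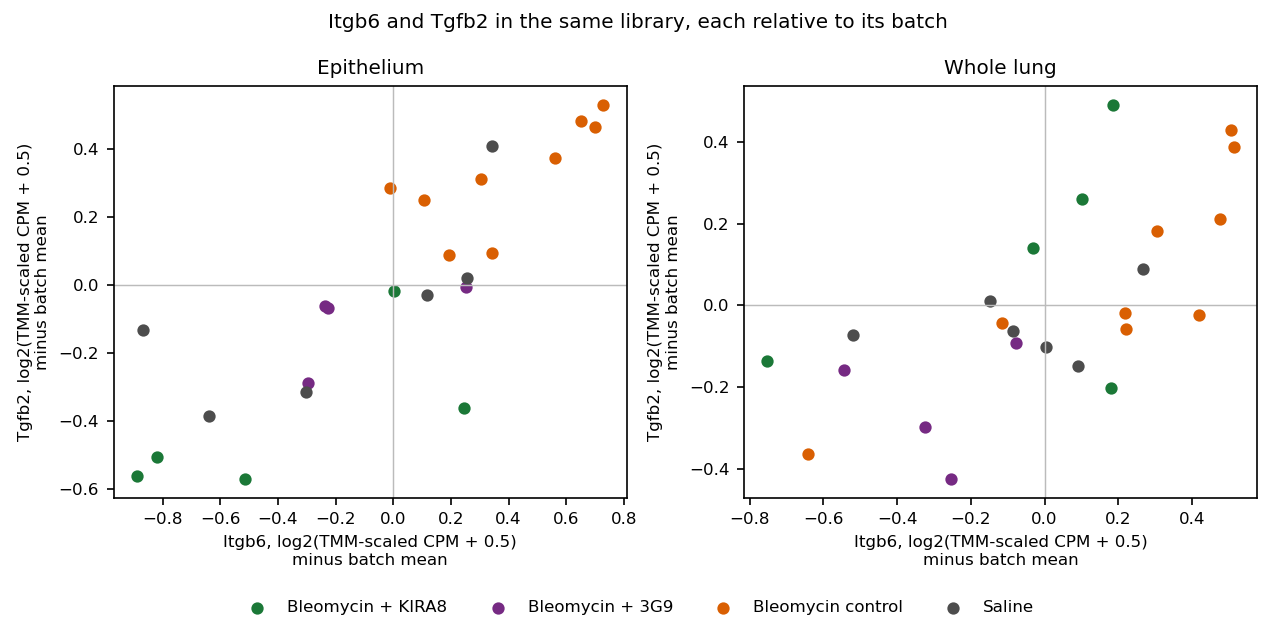
Itgb6 against Tgfb2 in each library, both as log2(TMM-scaled CPM + 0.5) minus the batch mean, for 24 epithelial and 24 whole lung libraries coloured by arm. In epithelium (r of 0.84) all 9 bleomycin control mice lie above their batch mean for Tgfb2 and all 5 KIRA8 mice below it.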

How the data were processed

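The authors deposited 1 table of raw read counts per Ensembl gene and library, made with STAR 2.5.2b and GRCm38 per the submitters' processing notes. The sources used here do not give the counting program. Table columns were matched to the 48 libraries by mouse number and compartment, 0 columns were left unused, and 0 library pairs held identical counts. The column of 3G9 mouse 218 whole lung carries an unexplained suffix. The 10 genes and all lists were chosen with earlier results of these data known. Coordinates and promoters are from RefSeq (GRCm38.p6), whose gene table matched 0 Ensembl identifiers, so the gene lists for other pathway genes and cell types could not be applied.

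In R 4.3.3, edgeR 4.0.16 tested counts by quasi-likelihood (TMM scaling, robust dispersions, low counts removed by filterByExpr). That filter grouped libraries by arm in fits of 1 compartment and by compartment in paired fits. For differences of a response between compartments it grouped them by compartment and arm. Genes were called at an adjusted p under 0.05 by Benjamini-Hochberg over all genes. Each compartment had a fit of its 24 libraries on arm and batch. SE is the log2 fold change over the root of F, and intervals are normal at the 95% level. Compartments were compared with the mouse as a block, since the labels give each mouse number to an epithelial and a whole lung library. As a check, the libraries of a mouse deviated together from the mean of their arm and batch, with r across genes from 0.154 to 0.692 (median 0.354). Printed levels are CPM scaled by TMM over all 48 libraries, chosen after seeing that scaling mattered. Every share of all genes without overlap is over genes with a mean of at least 1 CPM in the libraries compared. That limit was not applied to the 10 genes, of which Itgb8 in epithelium mostly lay below it. Genes for the likeness measure were ranked on log2(CPM + 0.5), and the rule named all 10 genes in every comparison. Floors of 3 counts cover counting error only. Total counts per library (7163613 to 51797377) limit precision for low genes, Itgb8 first of all.

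Alternatives were median-ratio (RLE) scaling, DESeq2 1.42.0, no low-count filter, each mouse left out, arms alone within a batch, no batch S061, sex as a term, the count share of 146 S061-limited genes as a term, no replicate block, and, chosen after seeing the data, library totals without TMM. The tests of KIRA8 and 3G9 differences between compartments were also added after seeing the data.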

Additional observations from a re-analysis of the deposited data

Results flagged for a closer look

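In groups of 4 mice of 1 arm and batch, 4 values lay far from the other 3 relative to the group's range. Among 3G9 mice, Itgb6 in epithelium was 64.4 CPM in mouse 218, and Ltbp1 in epithelium was 13.9 CPM in mouse 219. Among bleomycin control mice of S151, Itgb8 in epithelium was 0.276 CPM in mouse 208R, a gene with at most 8 counts there, and Smad7 in epithelium was 9.05 CPM in mouse 206, below the other 3. In all, 40 groups were examined, and chance alone flags about 1 in 20 groups.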

How the results depend on the processing

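Counts of genes called, out of 10, varied with the setting, and the percentage after each is the share of all genes tested that passed in the same setting. For bleomycin against saline in epithelium (0 in the main setting, 8.72%) the count was 1 with RLE scaling (8.57%), 3 with DESeq2 (12.3%), 3 with sex as a term (8.13%), 6 with library totals (20.9%), and 0 to 3 over fits without a single mouse (6.02% to 10.8%). In whole lung (1, 10.1%) it was 0 within S135 (0.506%), 0 within S151 (4.57%), and 0 to 3 without a single mouse (6.10% to 11%). For KIRA8 against bleomycin control in epithelium (1, 0.26%) it was 2 with DESeq2 (1.41%), and 0 without batch S061 (0.0114%), with the S061-limited share as a term (0.0174%), within S061 (0.878%) or within S135 (0.109%). In whole lung (0, 0.527%) it was 1 within S061 (0.643%). For 3G9 against saline in epithelium (0, 4.24%) it was 1 with DESeq2 (7.10%), library totals (7.88%) or within S151 (5.92%), and in whole lung (0, 10.4%) it was 0 to 1 without a single mouse (3.73% to 13.5%). The KIRA8 difference between compartments (0, 0.00548%) gave 1 with DESeq2 (1.10%), 1 without the low-count filter (0.156%), and 0 to 1 without a single mouse (0.00536% to 0.0757%). Epithelium against whole lung in saline mice turned to -0.15 for Itgb6 and -0.32 for Tgfb2 with library totals. Without the mouse as a replicate block, Itgb6 in that contrast was 0.67 (adjusted p = 0.00937), and no call between compartments changed. The cause of these shifts was not tested. Fits within a batch hold fewer mice. Itgb8 in epithelium is limited by depth.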

Other observations

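Itgav and Tgfbr2 also varied together within batches. Over the 24 epithelial libraries their batch-centred log2(CPM + 0.5) had an r of 0.85 with TMM scaling and 0.92 with library totals, and over the 24 whole lung libraries 0.72 and 0.78.

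Tgfbr1, which encodes the receptor kinase that passes the signal on, was uneven among the epithelial libraries of S135. It had 0.466 and 6.90 CPM in KIRA8 mice and 9.40 and 1.95 CPM in bleomycin control mice, against 10.8, 6.87 and 9.27 CPM in saline mice. The lowest value rested on 5 counts. In S061 the same gene had 13.8, 11.7 and 13.8 CPM in KIRA8 mice, against 10.1, 12.5 and 12.3 CPM in bleomycin control mice.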
